A study of Capra hircus with 90 samples.

Results

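The retrotrapezoid nucleus (RTN) of goats that had breathed 6% CO2 for 24 h was compared with the RTN of goats that had breathed it for 3 h. The comparison holds 12 of the series' 90 libraries, 6 from each exposure, chosen by their sample titles. All goats were outbred females at least 2 years old, and the labels name no genetic change or drug in any group. Another group of 6 goats, kept in room air for 24 h, entered the same fit and gives the level without CO2. No group spent only 3 h in room air. RNA came from punches about 1.8 mm wide, taken 8 to 10 mm rostral to the obex, so each library mixes the neurons, glia and vessels of that tissue. Goats of different exposures were different animals, and all 3 groups were extracted and sequenced in the first of the study's 2 batches. The same goats also gave punches of the nucleus of the solitary tract (NTS) and the ventral respiratory column (VRC).

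The RTN is a small group of neurons at the ventral surface of the rostral medulla. These neurons are excited by CO2 and protons and drive the breathing rhythm through the respiratory column. Local blood vessels and astrocytes are known to take part in this chemosensitivity, and CO2 also dilates brain vessels, in part through nitric oxide. Blood vessels of the brain carry thrombomodulin, endothelial nitric oxide synthase and receptors for vascular growth factors, so a punch of the RTN reports on vessels as well as on neurons.

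Gene symbols are known for 238 genes that the authors' deposited tables name, and 231 of these were abundant enough to be tested. The authors selected those genes on these libraries for a difference between CO2 and room air at one of the sites after 3 h, 24 h or 7 d, so they are not an independent sample of genes. The site label was not checked against markers of its neurons here.

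Total counts ran from 20.4 to 29.9 M per library after 3 h, from 13.2 to 26.5 M after 24 h and from 16.6 to 26.0 M in room air. The libraries of a group did not lie close together. On the first principal component of the 18 libraries (20.1% of the variance) replicates 4, 5 and 6 of the 3 h group lay at -31.8, -47.2 and -38.9, and its other libraries at -10.4 to 26.5. After 24 h replicate 5 lay at -25.6 and the other 5 libraries at 10.5 to 34.1. On the second component (9.9%) replicate 2 of the 3 h group lay at -43.9 and replicate 6 of room air at -38.4, and the rest at -14.5 to 28.4. With 1 surrogate variable in the fit edgeR called 1 gene between the times.

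In replicate 4 of the 3 h group 2 genes were at least 10-fold above all other RTN libraries of the batch, and these were TTR and the unnamed ENSCHIG00000016916. The main counts are therefore given with and without that library, and counts that another library changed by more than 1.5 times are given without it as well.

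No gene differed between 24 h and 3 h of CO2 at an adjusted p under 0.05. The edgeR quasi-likelihood test with Benjamini-Hochberg adjustment called 0 of 15479 genes (0%), and the lowest adjusted p was 0.109. An unadjusted p under 0.05 was found for 1390 genes (8.98%), of which 690 (4.46%) had a higher mean at 24 h and 700 (4.52%) a lower one. The groups did not overlap for 36 genes (0.233%) that were higher in every 24 h library and for 18 genes (0.116%) that were lower. The median log2 difference over all genes was 0.00195, with quartiles at -0.132 and 0.127, and 291 genes (1.88%) lay more than 1 log2 unit from 0. Over all genes 50.4% had a log2 difference above 0. The median standard error (SE) was 0.148. A missing call does not show that a gene was at the same level at both times.

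Without replicate 4 of the 3 h group edgeR again called 0 of 15547 genes (0%), with a lowest adjusted p of 0.181. Then 1047 genes (6.73%) had an unadjusted p under 0.05, 531 (3.42%) higher and 516 (3.32%) lower at 24 h. Of the 1390 genes at an unadjusted p under 0.05 with all libraries, 913 were also under it without that library. DESeq2 called 25 genes on the same counts, 19 higher and 6 lower at 24 h. Among the 25 were 2 with a symbol: FAM234A and HYAL2. Leaving out replicate 3 of the 3 h group brought the edgeR count to 5, none of them with a symbol. The calls depended on the tool and on that library, and single genes below are given as measured values with their errors.

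**Figure D1:**
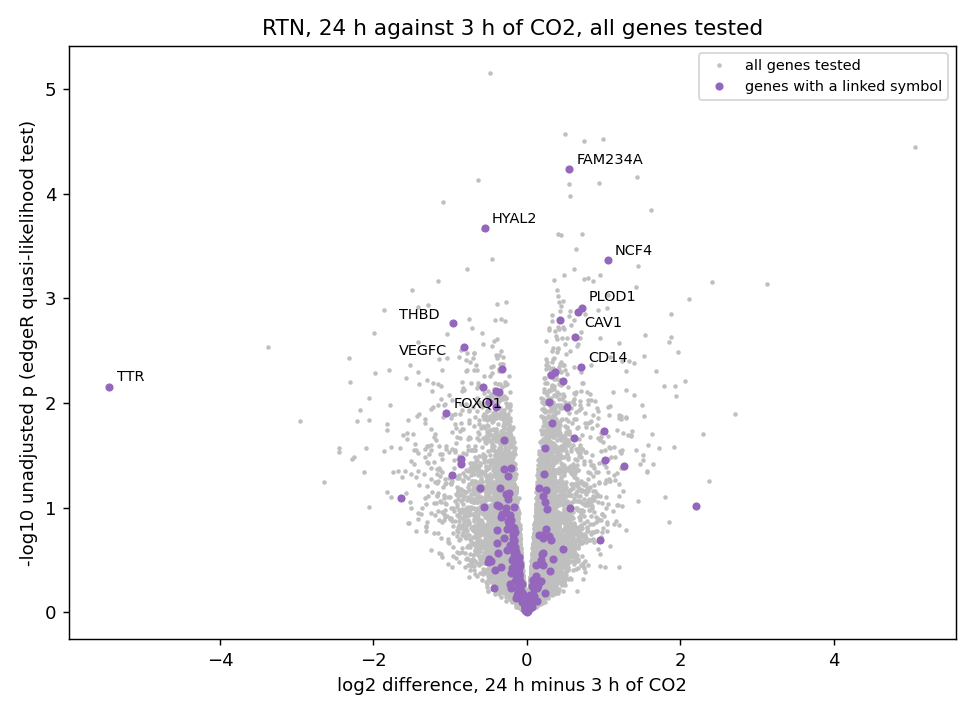
Each point is a gene of the RTN: the horizontal axis is the log2 difference, 24 h minus 3 h of CO2, and the vertical axis is -log10 of the unadjusted p of edgeR's quasi-likelihood test. Purple points are the 231 genes with a symbol; TTR lies far to the left at -5.44, a value that rests on 1 library, and FAM234A and HYAL2 are the named genes of lowest p.

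Of the 231 genes with a symbol, 36 (15.6%) had an unadjusted p under 0.05, 19 of them higher and 17 lower at 24 h, beside 8.98% of all genes tested. Without replicate 4 of the 3 h group it was 26 of 230 (11.3%), 15 higher and 11 lower. The count of lower genes was 31 without replicate 1 of that group and 26 without replicate 3. The authors' tables at 3 h or 24 h name 219 of the 238 genes and the 7 d table alone names 19, so most were picked for a difference in goats compared here and this share is a description of the picked genes. Against room air edgeR called 2 genes (0.0129%) at 3 h and 0 (0%) at 24 h, with 1071 (6.92%) and 1001 (6.47%) at an unadjusted p under 0.05, and both comparisons share the room-air libraries.

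Some genes of the vessel wall were among those with lower means at 24 h. MYLK, of smooth muscle and endothelium, and the caveolar gene CAV1 had higher means (log2 0.63 and 0.66) and are not on the list used here. A list of endothelial genes of blood flow and vessel identity had 7 tested members, and 0 of 7 passed 0.05. Lower means at 24 h were found for 5 of 7, while 35.1% of genes with a symbol and 50.4% of all genes had higher means. An unadjusted p under 0.05 was found for 4 of 7, with and without replicate 4 of 3 h. In that direction it was 17 of 231 genes with a symbol and 4.52% of all genes, with all libraries. The list's median log2 difference was -0.487, beside -0.0796 for genes with a symbol and 0.00195 for all genes. The authors' deposited tables list HYAL2, THBD, NOS3 and ACVRL1 as higher at 3 h in the NTS. FOXQ1 is listed as lower at 24 h in the VRC. In the NTS at 24 h MEOX2 is listed as lower and ACKR1 as higher. Those tables rest on the same goats, so lower values at 24 h were in part selected for and the counts are a description.

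HYAL2, a cell-surface hyaluronidase that splits the hyaluronan of the endothelial coat, was the 1 gene with a symbol that was lower in every 24 h library than in every 3 h library. Its counts normalised to library size (CPM) were 14.9, 16.4 and 18.4 (lowest, median and highest of 6) after 3 h. After 24 h they were 9.56, 11.5 and 12.6, and in room air 8.07, 12.1 and 14.5. The 24 h values lay within the room-air range. The log2 difference was -0.55 (SE 0.12, 95% interval -0.80 to -0.29), with an edgeR adjusted p of 0.213. It was -0.55 without replicate 4 as well (adjusted p = 0.395), and DESeq2 gave -0.55 (adjusted p = 0.0151). The authors' deposited tables list HYAL2 at 3 h in the NTS (log2 0.87) and the VRC (0.84), not in the RTN.

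THBD encodes thrombomodulin, the endothelial receptor that turns thrombin towards anticoagulant protein C. It is one of 2 genes that the authors' deposited table lists in the RTN at 3 h, with a log2 change of 1.83 against room air. Its CPM were 7.15, 10.6 and 14.0 after 3 h, 4.31, 5.18 and 7.32 after 24 h, and 0.478, 3.02 and 5.16 in room air. The ranges of the CO2 groups met only at their edge, where the highest 24 h library lay above the lowest 3 h library. The log2 difference was -0.96 (SE 0.27, 95% interval -1.52 to -0.40; edgeR adjusted p = 0.411). Against the same room-air libraries the 3 h value was 1.81 (edgeR adjusted p = 0.0250) and the 24 h value 0.85 (adjusted p = 0.661).

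NOS3, the endothelial nitric oxide synthase, had CPM of 20.1, 23.8 and 28.4 after 3 h and 10.6, 15.3 and 26.3 after 24 h. In room air they were 10.9, 15.6 and 19.3. In the 24 h group 4 libraries lay below all 3 h libraries and 2 lay among them. The log2 difference was -0.49 (SE 0.17; edgeR adjusted p = 0.476). FOXQ1, a forkhead transcription factor, was scarce at 0.223, 1.09 and 1.46 CPM after 3 h and 0.210, 0.483 and 0.903 after 24 h, a difference of -1.05 (SE 0.39; edgeR adjusted p = 0.476). One 3 h library, at 0.223 CPM, lay near the lowest 24 h library, and the others were at 0.745 CPM or more.

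ACVRL1, the endothelial receptor for BMP9, had a log2 difference of -0.39 (SE 0.22), with medians of 13.6 CPM after 3 h, 10.9 after 24 h and 10.7 in room air. The remaining members, MEOX2 and ACKR1, had higher means at 24 h. For MEOX2, a homeobox factor of brain endothelium, the 24 h range of 0.335 to 3.54 CPM enclosed the 3 h range of 0.954 to 1.74, and the difference was 0.47 (SE 0.39). ACKR1, a chemokine receptor of venules that signals through no G protein, falls outside the rule for named genes and is given because it is one of the list's more abundant members, a choice made after its values were seen. Its CPM were 12.2, 18.6 and 30.9 after 3 h, 5.27, 10.0 and 67.1 after 24 h and 7.34, 11.6 and 21.5 in room air. After 24 h replicates 1 and 5 held 36.6 and 67.1 CPM and the other 4 libraries lay below all 3 h libraries. The difference was 0.23 (SE 0.51; edgeR adjusted p = 0.908), and -0.50 (SE 0.43) without replicate 5 of 24 h.

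Summed over all 7 genes, the endothelial level was 72.1, 86.4 and 105 CPM after 3 h, 41.7, 57.0 and 121 after 24 h and 50.2, 55.7 and 66.0 in room air. The 24 h range enclosed that of 3 h, with replicates 1 and 5 at 93.7 and 121 CPM and the other 4 libraries below all 3 h libraries. Without ACKR1 the sum was 52.9 to 74.6 CPM after 3 h, 32.8 to 57.1 after 24 h and 28.7 to 51.9 in room air, and none of those 6 genes was at 0 in any library. In bulk tissue a smaller share of cells of a type and less RNA per cell cannot be told apart.

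**Figure D2:**
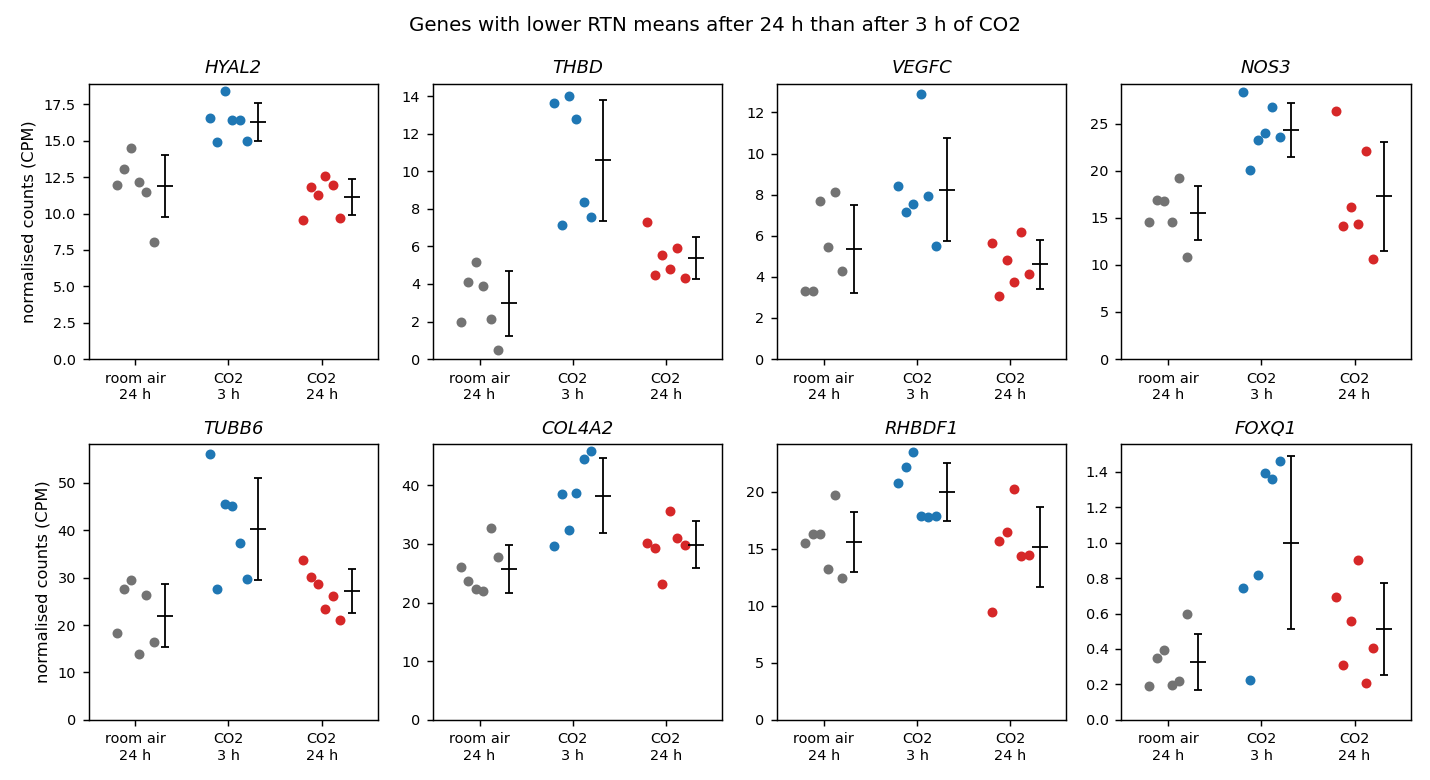
Normalised counts (CPM, vertical axes from 0) of 8 genes with lower RTN means after 24 h than after 3 h of CO2; each point is 1 library, and the bar beside each group is its mean with SD (n = 6). For HYAL2 the 3 h and 24 h groups do not overlap, and for the other 7 genes they do.

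The vascular growth factors had differences of either sign. Among 22 genes listed for VEGF signalling and oxygen sensing 4 were linked and tested, 0 passed 0.05, 3 had higher means at 24 h and 1 a lower one, and the median log2 difference was 0.0787 (-0.0153 without replicate 2 of the 3 h group). Without replicates 1 or 2 of 3 h, or 1 or 5 of 24 h, 2 had lower means. VEGFC, the ligand best known for lymphatic vessel growth, was the lower one with all libraries. Its CPM were 5.52, 7.74 and 12.9 after 3 h, 3.07, 4.49 and 6.16 after 24 h, and 3.30, 4.88 and 8.11 in room air. The log2 difference was -0.82 (SE 0.24, 95% interval -1.33 to -0.31; edgeR adjusted p = 0.449), and -0.64 without replicate 4 (adjusted p = 0.723). The highest 3 h value was that of replicate 4, and 1 other 3 h library lay within the 24 h range. The authors' deposited table lists VEGFC as higher at 3 h in the NTS of the same goats (log2 1.13).

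VEGFA, the main growth factor of vessel sprouting and permeability, had CPM of 22.8, 36.1 and 43.0 after 3 h and 28.5, 35.1 and 52.9 after 24 h. The difference was 0.12 (SE 0.16, 95% interval -0.21 to 0.45). Room-air libraries held 43.3, 54.1 and 66.9 CPM, so each 3 h library lay below each room-air library. Against room air the values were -0.65 at 3 h and -0.52 at 24 h, neither past 0.05 (edgeR adjusted p = 0.321 and 0.533), and both share the room-air libraries. VEGFB differed by 0.16 (SE 0.12), from a median of 24.6 to 25.9 CPM with 17.95 in room air. EGLN1, the oxygen-sensing enzyme PHD2 that tags hypoxia-inducible factors for degradation, differed by 0.04 (SE 0.13, 95% interval -0.24 to 0.31), from a median of 71.5 to 64.4 CPM with 49.4 in room air. For VEGFA, VEGFB and EGLN1 the difference between the times was less than 1.5 times its own SE.

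TUBB6, COL4A2 and RHBDF1 also had lower means at 24 h. TUBB6, a beta-tubulin, had 27.6, 41.2 and 56.0 CPM after 3 h, 21.1, 27.4 and 33.7 after 24 h and 13.8, 22.3 and 29.4 in room air. Its difference was -0.56 (SE 0.19; edgeR adjusted p = 0.476), and the groups overlapped. COL4A2, a collagen of the vascular basement membrane, had medians of 38.6, 30.0 and 24.8 CPM in the same order and differed by -0.37 (SE 0.12). RHBDF1, an inactive rhomboid that carries the sheddase ADAM17 to the cell surface, differed by -0.41 (SE 0.15), with medians of 19.3, 15.1 and 15.9 CPM. In all 3 genes the median was highest after 3 h. The authors' deposited tables list TUBB6 as higher at 3 h in the NTS and the VRC, and RHBDF1 in the NTS. COL4A2 is listed as lower at 24 h in the VRC. Those tables rest on the same goats, so lower values at 24 h than at 3 h were in part selected for.

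Of the 17 genes with a symbol that were lower at 24 h at an unadjusted p under 0.05 by edgeR, 10 had 24 h means below room air. MAP1LC3A and GNG3 were among these. The authors' deposited table lists both as lower at 24 h in the NTS of the same goats, so lower values were in part selected for. MAP1LC3A, a protein of the autophagosome membrane, had 187.5, 209.9 and 239.7 CPM after 3 h, 138.6, 166.9 and 209.1 after 24 h and 159.6, 205.7 and 249.9 in room air, a difference between the times of -0.32 (SE 0.10; edgeR adjusted p = 0.449). GNG3, a G protein gamma subunit of neurons, had medians of 239.0, 185.5 and 217.7 CPM in that order and differed by -0.40 (SE 0.14). In the 6-member list of vesicle traffic and autophagy, which holds MAP1LC3A, 0 passed 0.05 and 5 had lower means, with a median of -0.139. Without replicate 6 of the 3 h group 3 had lower means. ROPN1L, a ropporin of cilia and flagella, differed by -0.30 (SE 0.12) and TMEM176B, a membrane protein, by -0.86 (SE 0.37). TMEM176B was widely spread after 3 h, from 11.3 to 63.4 CPM, against 17.1 to 33.2 after 24 h.

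On the higher side the named gene of lowest p was FAM234A, a membrane protein. Its CPM were 116.1, 123.5 and 143.5 after 3 h, 150.2, 178.8 and 229.1 after 24 h, and 118.8, 134.5 and 169.3 in room air. Every 24 h library lay above every 3 h library, and 3 of the 24 h libraries, replicates 1, 2 and 5, lay above all room-air libraries. The log2 difference was 0.55 (SE 0.11, 95% interval 0.32 to 0.78; edgeR adjusted p = 0.126), and 0.54 without replicate 4 (adjusted p = 0.304). DESeq2 gave 0.55 with an adjusted p of 0.00567. The authors' deposited table lists it in the NTS at 24 h (log2 0.58).

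PLOD1, CAV1, MYLK and GSN, which encode proteins of collagen assembly, caveolae and the actin frame, had higher means at 24 h. They were put together after their values were seen. The authors' deposited table lists each of them as higher at 24 h in the NTS (log2 0.70, 0.73, 0.68 and 0.72). That table rests on the same goats, so their shared direction was in part selected for. PLOD1, a lysyl hydroxylase of collagen, had 36.0, 51.0 and 60.3 CPM after 3 h and 52.3, 82.1 and 117.9 after 24 h, with 43.2, 57.4 and 75.1 in room air. Its difference was 0.72 (SE 0.19, 95% interval 0.32 to 1.11; edgeR adjusted p = 0.394), and 0.63 without replicate 4. In the 24 h group 3 libraries, replicates 1, 2 and 5, lay above all room-air and all 3 h libraries. CAV1, the coat protein of caveolae, had 102.9, 112.2 and 163.3 CPM after 3 h and 143.3, 174.6 and 325.1 after 24 h. The difference was 0.66 (SE 0.18; edgeR adjusted p = 0.397), and the highest 24 h library was far above the rest. That library was replicate 1, followed by replicate 5 at 217.6 CPM, and the others of 24 h held 143.3 to 190.8.

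MYLK, the kinase of myosin light chains in smooth muscle and endothelium, had 23.8, 33.5 and 38.9 CPM after 3 h and 31.7, 44.3 and 69.8 after 24 h. The difference was 0.63 (SE 0.18; edgeR adjusted p = 0.432). Replicates 1 and 5 of 24 h held 69.8 and 67.2 CPM of MYLK and the others 31.7 to 46.5. GSN, the actin-severing gelsolin, had 307.4, 376.7 and 452.4 CPM after 3 h and 414.8, 487.1 and 612.3 after 24 h. The difference was 0.37 (SE 0.12; edgeR adjusted p = 0.449), and replicate 1 was the lowest 24 h library for GSN. For MYLK and GSN the 3 h medians lay within the room-air ranges, and for CAV1 the 3 h median lay below the room-air minimum of 115.5 CPM. For CAV1, MYLK and GSN the log2 differences from room air at 24 h were 0.57, 0.59 and 0.37, none past 0.05.

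Markers of microglia and other myeloid cells had higher means at 24 h in 4 of 4 linked genes of a 15-gene list. None of the 4 passed 0.05. Higher means were found for 35.1% of genes with a symbol and 50.4% of all genes. An unadjusted p under 0.05 was found for 3 of 4. Without replicate 4 of 3 h or replicate 3 of 24 h it was 2 of 4. In that direction it was 19 of 231 genes with a symbol and 4.46% of all genes, with all libraries. The median log2 difference was 0.662, beside -0.0796 over genes with a symbol and 0.00195 over all genes. The authors' deposited tables list NCF4 and CD1D as higher at 24 h in the VRC (log2 1.40 and 1.24). In the NTS at 24 h they list CD14 as higher (0.84) and AIF1 as lower (-0.65). Those tables rest on the same goats, so the counts are a description of picked genes. NCF4, a regulatory subunit of the phagocyte NADPH oxidase, had 2.32, 3.12 and 4.70 CPM after 3 h, 4.08, 5.59 and 10.7 after 24 h and 3.42, 4.19 and 6.87 in room air. The difference was 1.05 (SE 0.25, 95% interval 0.53 to 1.58; edgeR adjusted p = 0.321). One 3 h library reached into the 24 h range. Replicates 1 and 5 of 24 h held 9.56 and 10.7 CPM, and the others, at 4.08 to 5.77, lay within the room-air range.

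CD14, a co-receptor for bacterial lipopolysaccharide, had 4.71, 7.497 and 8.97 CPM after 3 h and 7.52, 10.2 and 17.6 after 24 h. The difference was 0.71 (SE 0.22; edgeR adjusted p = 0.449). Replicates 1 and 5 of 24 h held 17.57 and 16.35 CPM of CD14. The others, at 7.52 to 11.18, lay within the room-air range of 6.865 to 12.05. CD1D, which presents lipids to natural killer T cells, had 1.61, 3.08 and 5.09 CPM after 3 h and 2.701, 5.60 and 5.92 after 24 h. The difference was 0.61 (SE 0.25), and replicates 1 and 5 lay within the range of the other 24 h libraries. AIF1, the gene of the microglial stain Iba1, differed by 0.25 (SE 0.13), with medians of 52.7 CPM after 3 h, 66.8 after 24 h and 77.4 in room air. For AIF1 the 24 h median thus lay below that of room air, unlike NCF4, CD14 and CD1D. The summed level of the 4 genes was 60.6 to 95 CPM after 3 h, 79.7 to 114 after 24 h and 71.2 to 104 in room air, and none was at 0 in any library.

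**Figure D3:**
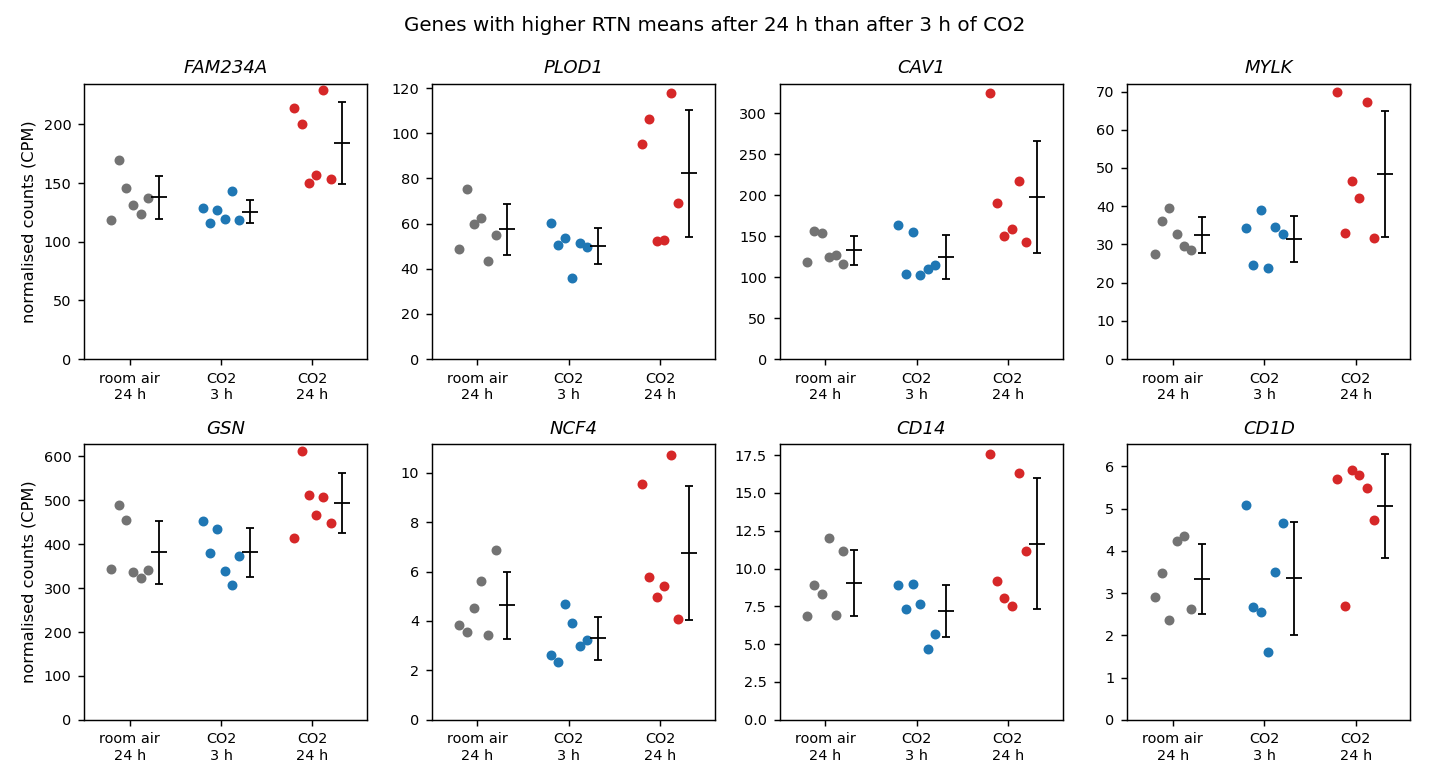
Normalised counts (CPM, vertical axes from 0) of 8 genes with higher RTN means after 24 h than after 3 h of CO2; each point is 1 library, and the bar beside each group is its mean with SD (n = 6). The 24 h libraries spread more widely than the 3 h libraries for PLOD1, CAV1, MYLK, NCF4 and CD14, and for FAM234A the groups do not overlap.

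Several enzymes and other genes complete the higher side. The authors' deposited tables list IVD, ABHD17B and BBS10 as higher at 24 h in the NTS, and TMEM14A in the VRC. ACER2 is listed as lower at 3 h in the NTS, so these directions were in part selected for. ACER2, a ceramidase of the Golgi and a target of p53, had 5.84, 7.86 and 10.1 CPM after 3 h, 9.20, 10.5 and 15.1 after 24 h and 9.17, 11.7 and 14.1 in room air. Its difference was 0.48 (SE 0.16; edgeR adjusted p = 0.476), and its 24 h values lay within or near the room-air range. IVD, a mitochondrial enzyme of leucine breakdown, differed by 0.32 (SE 0.10), from a median of 86.8 to 110.4 CPM. TMEM14A differed by 0.44 (SE 0.12), ABHD17B, a depalmitoylating enzyme of synapses, by 0.29 (SE 0.10) and BBS10, a chaperonin-like protein of cilia, by 0.53 (SE 0.19). In the list of p53 targets, which holds ACER2, 0 of 4 passed 0.05 and 3 had higher means, with a median of 0.256.

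Scarce genes gave wide intervals. HEMGN, a nuclear protein of blood-forming cells, differed by 1.01 (SE 0.40), from a median of 0.672 to 1.24 CPM with 0.878 in room air, while HBQ1, a globin, differed by -0.12 (SE 0.23). NPFF, a neuropeptide that modulates pain and autonomic control, had 0.220 to 1.07 CPM after 3 h and 0.252 to 3.76 after 24 h, a difference of 1.26 (SE 0.58; edgeR adjusted p = 0.543). Its ranges overlapped over nearly all of the 3 h range.

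Nuclear genes of the respiratory chain and cytosolic ribosomal proteins had small differences, and the counts of their signs rested in part on replicate 2 of the 3 h group. Of the respiratory genes 11 of 11 had lower means at 24 h, 0 passed 0.05, and 0 had an unadjusted p under 0.05. Among all 231 genes with a symbol 35.1% had higher means and the median log2 difference was -0.0796. Over all genes tested 50.4% had higher means, with a median of 0.00195. The log2 differences of the respiratory genes ran from -0.275 to -0.0203 with a median of -0.165. Without replicate 2 it was 9 of 11 with a median of -0.0579, and without replicates 1 and 3 in turn 3 and 2 genes had an unadjusted p under 0.05, all lower. ATP5IF1, the inhibitory factor of ATP synthase, had the lowest p of them, with 404.9, 523.7 and 700.2 CPM after 3 h and 350.5, 433.7 and 512.6 after 24 h, a difference of -0.27 (SE 0.15). Ribosomal proteins had lower means in 12 of 13, with a median of -0.0796, and RPL26L1 at -0.17 (SE 0.12) had the lowest p. Without replicate 2 of the 3 h group 1 of 13 was lower and 12 were higher, with a median of 0.0986, so that the direction turned with that library. The authors' deposited table of the NTS at 24 h was the source of all these symbols and lists each of the genes as lower than in room air. That table rests on the same goats, so lower values at 24 h were in part selected for. Members of 1 complex also share the libraries, and the counts are a description.

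The other lists gave no member past 0.05, and their counts of signs stand beside 50.4% of all genes with higher means. All 4 linked genes of growth and nutrient signalling had lower means, led by the adaptor NCK2 at -0.25 (SE 0.17), and it was 2 of 4 without replicates 5 or 6 of 3 h, or 3 or 4 of 24 h. In the Wnt list 3 of 4 were higher, led by CCDC85C at 0.32 (SE 0.24). It was 2 of 4 without replicate 1 of 24 h. It was 4 of 4 without replicates 4, 5 or 6 of 3 h, or 3 or 5 of 24 h. Among transcription machinery and corepressors 4 of 5 were lower (2 of 5 without replicate 3 of 24 h). Of these POLR2L, a shared subunit of RNA polymerases, had the lowest p, at -0.18 (SE 0.15). LRP3, of the lipoprotein receptor family, differed by -0.27 (SE 0.16) and GABRB2, a subunit of the GABA-A receptor, by -0.21 (SE 0.25). The clock gene NR1D2 differed by -0.06 (SE 0.15), with medians of 44.4 CPM after 3 h, 42.8 after 24 h and 28.5 in room air. Of the 22 lists, 5 had no linked member: immediate early genes, glucocorticoid-responsive genes, CO2 and proton sensing, astrocytes, and heat shock. These groups were not analysed here.

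Markers of other tissue varied with the libraries. TTR, the transthyretin that the choroid plexus secretes, was at 1869 CPM in replicate 4 of the 3 h group, and the other 5 libraries of that group held 0.952 to 3.19 CPM. After 24 h its level was 4.36, 7.08 and 9.76 CPM, and in room air 1.08, 1.74 and 5.79. With all libraries the log2 difference was -5.44 (SE 1.75; edgeR adjusted p = 0.476). Without replicate 4 it was 1.74 (SE 0.35; adjusted p = 0.281), so the sign turned with that library, and every 24 h library lay above all 5 other 3 h libraries. TTR is the other gene of the authors' deposited RTN table at 3 h, with a log2 change of 6.95. Among all 90 libraries 3 had more than 100 CPM of TTR, and the highest other RTN library held 13.8.

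PRPH, the peripherin filament of motor and peripheral neurons, had 27.8, 634.9 and 928.5 CPM after 3 h, 27.1, 128.4 and 419.5 after 24 h and 41.0, 248.7 and 691.8 in room air. In the 3 h group 4 libraries lay above all 24 h libraries and the other 2 lay among them. The log2 difference was -1.63 (SE 0.88; edgeR adjusted p = 0.594). OLIG1 and OLIG2, factors of the oligodendrocyte lineage, summed to 32.9 to 122 CPM after 3 h, 60.2 to 99 after 24 h and 25.8 to 68.5 in room air, with differences between the times of -0.13 (SE 0.31) and -0.11 (SE 0.24). The part of the levels of PRPH, of TTR and of library depth in the differences of other genes was not tested.

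**Figure D4:**
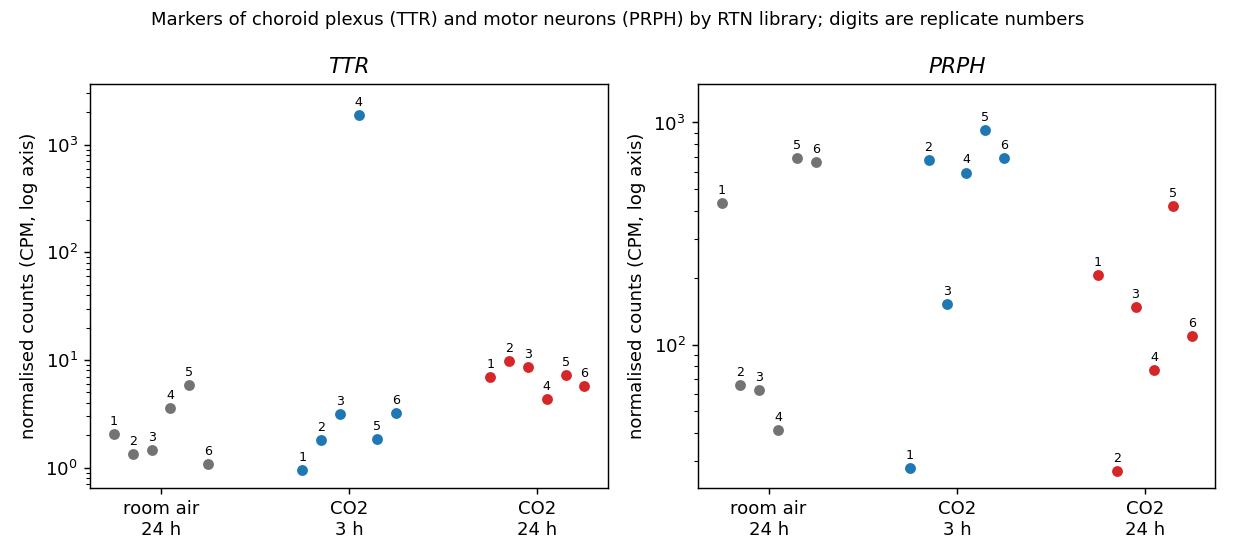
Normalised counts (CPM, log axes) of TTR and PRPH in the 18 RTN libraries of room air, 3 h and 24 h of CO2; each point is 1 library with its replicate number. Replicate 4 of the 3 h group is the only library above 10 CPM for TTR, and PRPH spans more than 10-fold within each group.

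Among genes without a symbol 2 in each direction are given here, chosen after their values were seen. ENSCHIG00000025773 had 41.1, 42.6 and 48.9 CPM after 3 h, 27.2, 31.8 and 34.5 after 24 h and 36.1, 39.5 and 42.7 in room air. Its difference was -0.47 (SE 0.08; edgeR adjusted p = 0.109), and every 24 h library lay below every library of both other groups. ENSCHIG00000024074 differed by -0.63 (SE 0.13; adjusted p = 0.126), from a median of 36.9 to 23.3 CPM with 33.2 in room air. On the higher side ENSCHIG00000022274 had 29.0, 31.8 and 39.0 CPM after 3 h and 45.0, 47.5 and 50.2 after 24 h, a difference of 0.50 (SE 0.09; adjusted p = 0.111). ENSCHIG00000021491 differed by 1.00 (SE 0.19; adjusted p = 0.111), from a median of 31.6 to 70.8 CPM with 48.7 in room air. Its groups overlapped, since replicate 3 of the 3 h group was at 59.4 CPM and the lowest 24 h library at 50.4.

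The same contrast at the other sites asked whether the RTN differed from them. In a fit over the 54 libraries of 3 sites, 3 groups and 6 goats each, the difference of the 24 h minus 3 h values between the RTN and the NTS was called by edgeR for 0 of 16339 genes (0%). An unadjusted p under 0.05 was found for 903 genes (5.53%). Between the RTN and the VRC it was also 0 (0%), with 301 genes (1.84%) at an unadjusted p under 0.05. DESeq2 called 0 in both. These fits leave out that the sites share goats. With the goat as a block edgeR again called 0 of 16339 genes in both comparisons. An unadjusted p under 0.05 was then found for 1392 genes against the NTS and 547 against the VRC. Within the NTS alone the fit without the block called 84 genes (0.514%) between the times, and 0 (0%) in each of the VRC and the RTN. That gap in counts is no test of a difference between sites, and the interaction tests gave none.

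HYAL2, THBD, NOS3, PLOD1, FAM234A and NCF4 had values of like size at the 3 sites, which come from the same goats and are not independent. The authors' deposited tables list each of these genes in the NTS or the VRC at 3 h or 24 h. They were then named here for a low p in the RTN, so like values were in part selected for. HYAL2 differed by -0.54 (SE 0.15) in the NTS, -0.62 (SE 0.16) in the VRC and -0.55 (SE 0.16) in the RTN. THBD gave -1.20, -1.30 and -0.96 in that order, and NOS3 -0.44, -0.50 and -0.49. On the higher side PLOD1 gave 0.64, 0.66 and 0.71, FAM234A 0.43, 0.49 and 0.55, and NCF4 0.97, 1.33 and 1.05. The RTN minus NTS difference for THBD was 0.24 (SE 0.47), and 0.26 (SE 0.32; edgeR adjusted p = 0.818) with the goat as a block.

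Some genes were spread more across the sites. MAP1LC3A was at -0.63 (SE 0.12; edgeR adjusted p = 0.0216) in the NTS, -0.01 (SE 0.12) in the VRC and -0.32 (SE 0.12) in the RTN. The RTN value lay between the others, 0.31 (SE 0.17) above the NTS and 0.31 below the VRC, with adjusted p of 0.885 and 1. VEGFC was at -1.22 (SE 0.21; adjusted p = 0.00945) in the NTS, -0.74 in the VRC and -0.83 in the RTN. With the goat as a block its RTN minus NTS difference was 0.38 (SE 0.23; edgeR adjusted p = 0.63). Its RTN minus VRC difference was then -0.05 (SE 0.23), and neither passed 0.05. ACER2 was at 0.27 in the NTS, 0.00 in the VRC and 0.48 (SE 0.15) in the RTN, 0.47 (SE 0.20) above the VRC with an adjusted p of 1.

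**Figure D5:**
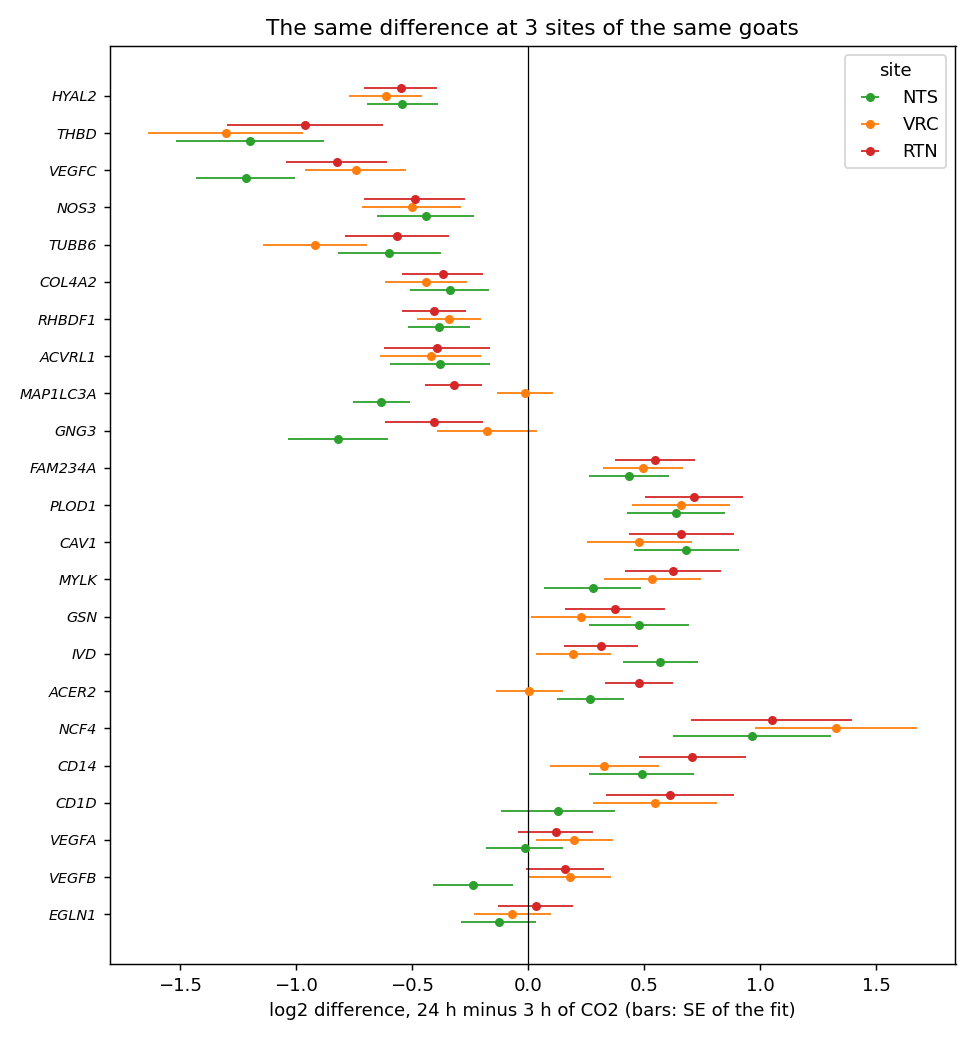
Log2 difference, 24 h minus 3 h of CO2, with the SE of the 54-library edgeR fit, for 23 named genes (rows) at the NTS, VRC and RTN of the same goats. The RTN points of HYAL2, NOS3, PLOD1 and FAM234A lie within 1 SE of those of both other sites, and those of MAP1LC3A and GNG3 lie between them.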

How the data were processed

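RNA of the punches was amplified with SMART-Seq v4, made into Nextera XT libraries and read as 100-bp pairs, per the labels' protocols. Build, annotation and strand setting are not given in the sources used. Per the submitters' processing notes, the tools were edgeR 4.6, featureCounts 2.0.6, STAR 2.7.10b and fastp 0.24.0. The authors deposited raw counts per Ensembl goat gene. Their deposited comparison tables hold log2 fold changes and mean abundances, likelihood ratio scores, and p-values with FDR.

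Symbols were linked by fitting all 90 libraries (filterByExpr minimum count 5, 17730 genes): all 342 deposited entries matched 1 gene by equal mean log2 CPM. The test was edgeR 4.0.16 in R 4.3.3 on 18 RTN libraries (TMM, filterByExpr minimum count 10 on the groups, 15479 of 25144 genes kept, glmQLFit with legacy=FALSE and robust=TRUE, Benjamini-Hochberg, threshold 0.05). It was tested on simulated data. Interaction contrasts used 54 libraries. CPM use TMM factors.

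Named genes are the 12 linked genes of lowest p in each direction with a mean of at least 1 CPM, the linked genes of the deposited RTN tables, list members at an unadjusted p under 0.05, the member of lowest p per list, linked cell type markers and 8 vascular genes. Other members are counted. The comparison, the lists and the members were chosen with earlier results of these data known. Alternatives were DESeq2 1.42.0, limma 3.58.1 voom, sva 3.50.0, other filters, libraries and factors, each library left out, and the replicate number as a block.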

Additional observations from a re-analysis of the deposited data

Results flagged for a closer look

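Dixon's test at the 95% level was run on 141 groups of 6 libraries, 3 groups for each of 46 genes and for the total counts. Chance marks about 1 in 20 groups, and 6 of 141 were marked. The library furthest from its group was replicate 4 of the 3 h group for TTR, at 1869 CPM against a group median of 2.51. Replicate 5 of room air was the lowest for TMEM14A (21.5 CPM, median 32.3) and AIF1 (56.5 CPM, median 77.4), and the highest for TMEM176B (48.8 CPM, median 21.9). That library enters the contrast of 24 h with 3 h only through the shared spread. In the compared groups replicate 3 of 3 h was high for BBS10 (8.49 CPM, median 6.15). Replicate 2 of 24 h was low for CD1D (2.701 CPM, median 5.60).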

How the results depend on the processing

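The count of 0 genes between 24 h and 3 h was 25 by DESeq2, 6 by a likelihood ratio test over all 90 libraries, 1 with 1 surrogate variable and 0 to 5 when each of the 12 RTN CO2 libraries was left out, the 5 without replicate 3 of the 3 h group. It was 0 under the other settings, with 2233 genes at an unadjusted p under 0.05 by voom. With the replicate block it was also 0, with 1754 such genes; same-numbered 3 h and 24 h libraries had residual correlations of median 0.00353, and 1 of 6 libraries correlated best with its own number, so the numbers do not pair the goats of the 2 exposures. Across sites the same number was the best match in 6 of 6 libraries in each of 4 pairs of groups. The RTN minus NTS count was 0 to 1 with each of the 12 RTN CO2 libraries left out, the 1 without replicate 5 of 24 h, and 0 with the goat as a block; the RTN minus VRC count was 0 throughout. Of 1057 values of 46 genes 1034 kept direction and side of the threshold, 3 passed it (FAM234A and HYAL2 by DESeq2, TTR by the likelihood ratio test at -5.46, adjusted p = 0.0274) and 20 reversed. TTR was 1.74 without replicate 4 of the 3 h group, -0.57 with the replicate block, and had no DESeq2 adjusted p. The other reversals were of genes near 0 or widely spread, and their cause was not tested. By voom VEGFA was -0.0651, HBQ1 0.19 and EGLN1 -0.055. With 1 surrogate variable PRPH was 0.0621, OLIG2 0.17, OLIG1 0.17 and NR1D2 0.0767. With each of the 12 left out MEOX2 ran from -0.035 to 0.72, VEGFA from -0.0085 to 0.19, HBQ1 from -0.25 to 0.13, OLIG1 from -0.29 to 0.0496, OLIG2 from -0.26 to 0.0258, NR1D2 from -0.18 to 0.0179, EGLN1 from -0.0581 to 0.10 and TTR from -5.71 to 1.74. The counts of list members and of genes with a symbol without each library, the blocked THBD and VEGFC values and the 7-gene endothelial sum were chosen after seeing the data. Each group's libraries came from separate goats per the design.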
